A study of Mus musculus with 12 samples.

Results

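The 41 genes described here encode enzymes and carriers of mitochondrial and peroxisomal fatty acid oxidation, enzymes of ketone body metabolism, the nuclear receptor PPAR-alpha (Ppara) and targets of that receptor. They were chosen by gene symbol, and all 41 were found among the 15749 genes with a value above 0 in the Ribo-seq libraries. Ribo-seq sequences the messenger RNA fragments that ribosomes cover, so a gene's level reports how many footprints it carried per unit of length. Livers came from male C57BL/6 mice aged 16 weeks that had received a high-fat feed alone (HFD, 3 libraries) or a high-fat feed with lycopene, a tomato carotenoid (LYC, 3 libraries), for 8 weeks from week 8. For this assay no library from a standard diet was used, so every difference is between mice that had all eaten fat. The treatment label of LYC names only the high-fat diet, and lycopene is known from the titles and the study's methods. The 3 libraries of each group are named HFD1 to HFD3 and LYC1 to LYC3, and values are given in that order. The extraction label speaks of pooled material where the study calls the libraries biological replicates, so the p-values measure the spread between these libraries.

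Fatty acids are bound to coenzyme A by acyl-CoA synthetases, carried into mitochondria by the carnitine shuttle and shortened there by repeated cycles of dehydrogenation, hydration, dehydrogenation and thiolysis. Peroxisomes shorten very long and branched chains first, and the liver turns surplus acetyl-CoA into ketone bodies that other organs burn. PPAR-alpha binds fatty acids, pairs with the retinoid X receptor and switches on many of these genes in the fasting liver.

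Depth differed strongly between the groups and sets what can be seen of the weaker members. The steps between RPKM values correspond to 834409 to 4405540 reads per HFD library and to 311050 to 412116 reads per LYC library. In HFD the members together took 1.77%, 2.08% and 1.76% of the reads on listed genes, and in LYC 1.95%, 2.64% and 1.87%. The HFD2 share lay above those of LYC1 and LYC3, so the groups overlapped on this sum. The widest exact (Clopper-Pearson) 95% interval was that of LYC2, from 2.58% to 2.70%, and covers counting error only. Small non-coding RNA genes took 2.59% to 4.15% of the reads in HFD and 8.71% to 13.3% in LYC, with no overlap. Levels below are RPKM divided by each library's TMM factor, edgeR's scaling between libraries, and are called scaled RPKM. Changes are log2 fold changes of LYC against HFD on the log2(scaled RPKM + 1) scale, which understates the change of low genes, with their standard error (SE) and the Benjamini-Hochberg adjusted p of limma's two-sided test over all genes tested.

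Of the 41 members 37 had enough reads to be tested. Of these, 8 were significantly higher in LYC at an adjusted p below 0.05, namely Acaa2, Acadl, Eci1, Eci2, Decr1, Etfb, Acat1 and Hsd17b4. Over all 5663 genes tested 6.53% were higher by the same rule and 5.26% were lower, against 21.6% of the tested members higher. No member was lower by limma's test, by edgeR or by DESeq2, and at an unadjusted p below 0.05, 17 members were higher and 1 (Acsl5) was lower, where 14.9% and 15.3% of all genes were. With the small non-coding RNA genes left out of the scaling 8 members were higher and 0 lower. The study's results used other limits, a change of more than 1 on the log2 scale in either direction together with an unadjusted p under 0.01, by which 8 members were higher and 0 lower, where 6.98% and 6.52% of all genes were. Every LYC library lay above every HFD library in 19 of the 37 members and below in 1, where these shares over all genes were 18.7% and 19.3%. The median log2 fold change was 0.58 for the tested members and -0.10 for all genes tested. Filtering on reads can favour members that are high in LYC, so the counts and the median describe only the 37 members that passed it.

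How many members passed depended on the libraries used, as did the share of all genes. Without HFD3, the shallowest HFD library, 0 members and 2.71% of all genes were higher in limma, and 11 members and 11.7% of all genes were higher at an unadjusted p below 0.05. Leaving out HFD1 left 3 members higher (3.74% of all genes), leaving out HFD2 left 4 (3.53%) and leaving out LYC1 left 3 (3.32%). Without LYC2 the number was 7 (5.29%), and without LYC3 it was 12 higher (8.95%) and 1, Acsl5, lower (11% of all genes). With all libraries edgeR's quasi-likelihood test on the recovered reads gave 12 members and 9.98% of all genes higher, and DESeq2 gave 15 and 11.5%. All 8 members named above had a positive log2 fold change in each of the 18 alternative fits.

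**Figure D1:**
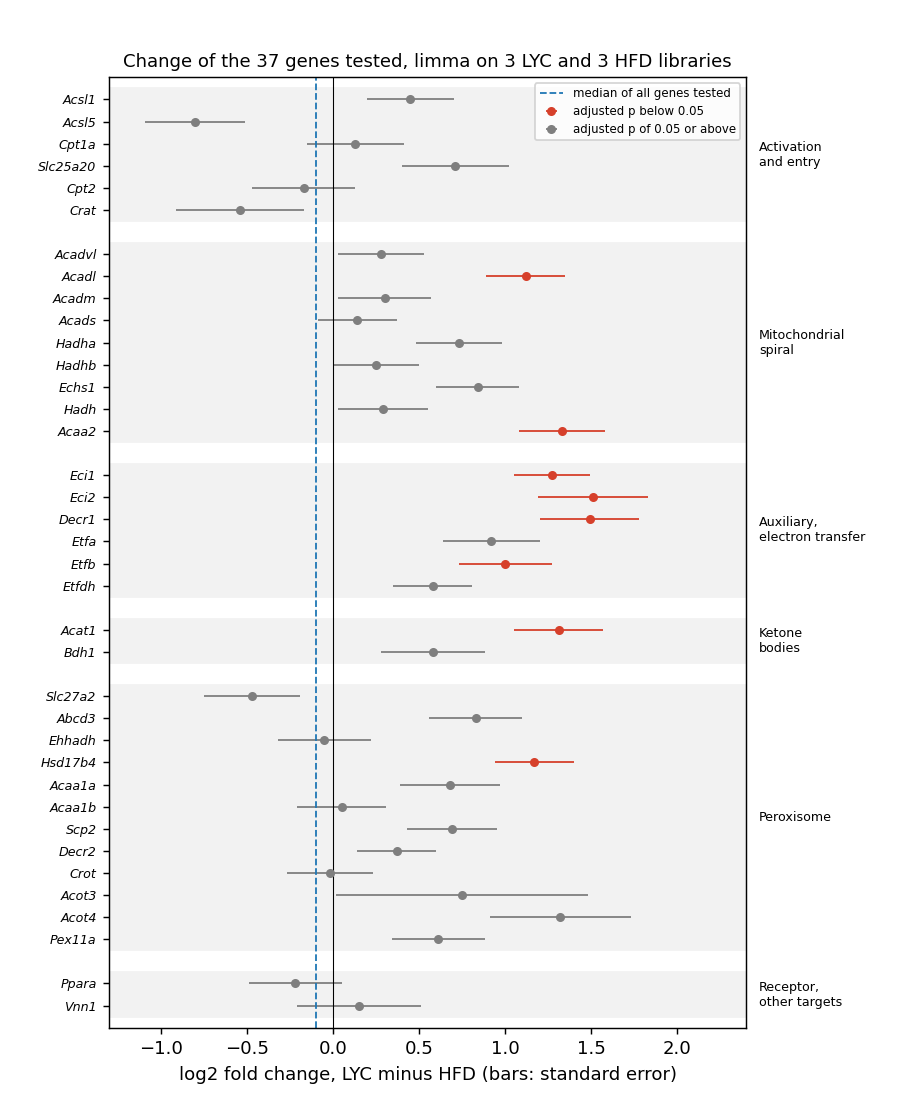
Log2 fold change of LYC against HFD for the 37 members tested, grouped by role, with bars of 1 standard error. Red marks the 8 members with an adjusted p below 0.05, 4 of them in the auxiliary and electron transfer group, and the dashed line marks the median of all genes tested (-0.10).

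The role groups differed in how many members passed. Of the 6 tested auxiliary and electron transfer genes, 4 were significantly higher in LYC and all 6 had groups that did not overlap. Their median change was 1.14 on the log2 scale. Among all genes the shares were 6.53% higher and 18.7% with every LYC library above HFD. The 9 enzymes of the mitochondrial spiral held 2 that passed (22.2%) and 4 whose LYC libraries all lay above HFD (44.4%), with a median of 0.30. Of the 12 peroxisomal genes tested 1 passed limma (8.33%, near the share of all genes). By edgeR 3 were higher and by DESeq2 4, where 9.98% and 11.5% of all genes were. Every LYC library lay above HFD in 6 of the 12, and their median change was 0.65. Of the 2 ketone body genes 1 passed. None of the 6 genes of activation and entry passed limma, edgeR or DESeq2, with 1 higher and 1 lower at an unadjusted p below 0.05, a share near that of all genes, and a median of -0.02. The 2 tested genes of the receptor group did not pass any of these tests either, and neither reached an unadjusted p below 0.05. Differences between the role groups were not tested.

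**Figure D2:**
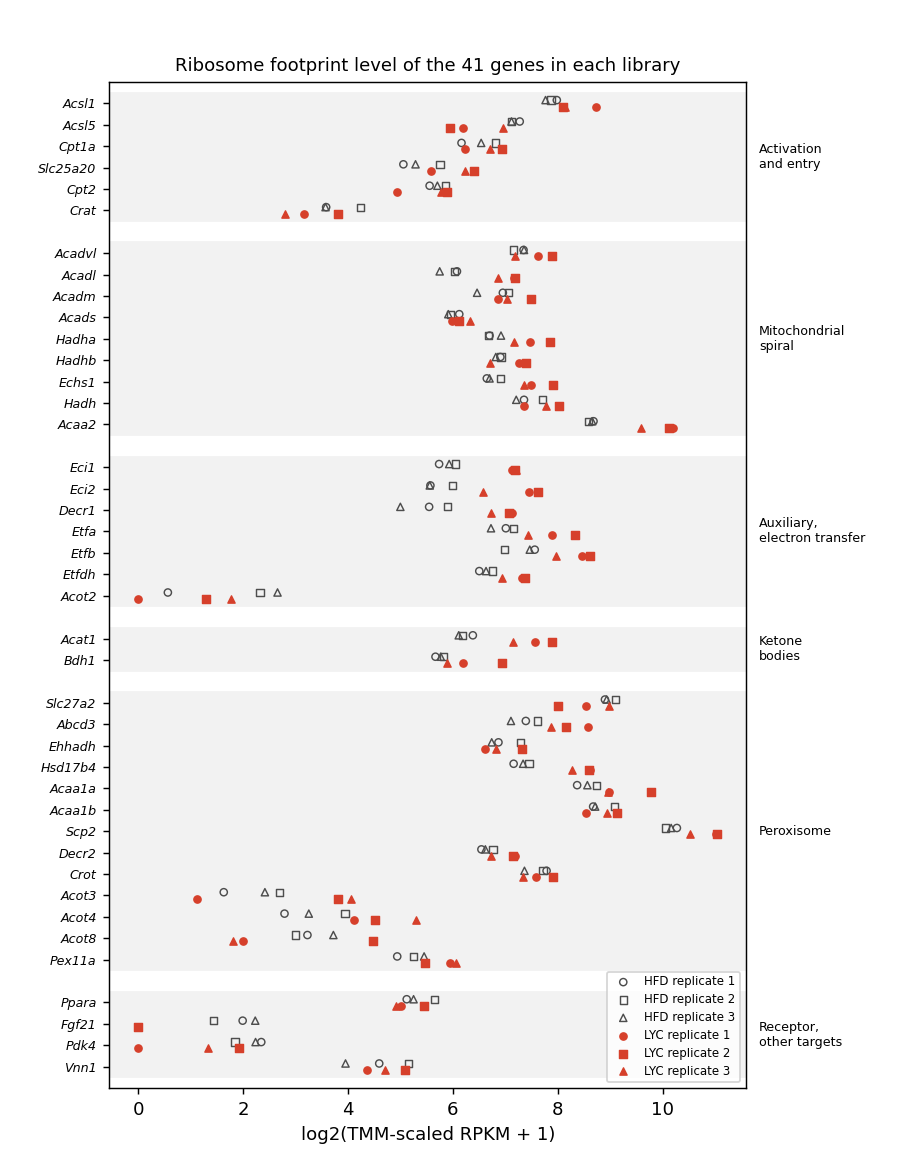
Ribosome footprint level of each of the 41 genes, as log2(TMM-scaled RPKM + 1), in the 3 HFD libraries (open symbols) and the 3 LYC libraries (filled symbols). The LYC symbols lie to the right of all HFD symbols in the 6 tested auxiliary and electron transfer genes, and the 3 LYC symbols of Fgf21 coincide at 0.

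Acyl chains with double bonds cannot run through the plain spiral and need isomerases and a reductase first. Among the members these are Eci1, Decr1, Eci2 and the peroxisomal Decr2. Decr2, described below, did not pass (log2 fold change 0.37, limma adjusted p = 0.313). Of Eci1, Decr1 and Eci2 none passed limma without HFD3, only Decr1 without HFD1 and only Eci1 without LYC1. Eci1 (chr17:24426683-24439316, GRCm38), the mitochondrial enoyl-CoA delta isomerase that shifts a double bond into place, stood at 52.4, 65.0 and 60.0 scaled RPKM in HFD and at 139, 144 and 147 in LYC. The LYC libraries lay within a narrow band above the HFD libraries. That band can understate counting error, since LYC1, LYC2 and LYC3 held only 48, 49 and 61 reads of Eci1. Its mean rose 2.43-fold, from 59.1 ± 6.35 to 143 ± 3.88 (SD, n = 3 each), with a log2 fold change of 1.27 (SE 0.22) and a limma adjusted p of 0.00896. Decr1 (chr4:15917240-15945377), the mitochondrial dienoyl-CoA reductase needed for polyunsaturated chains, was at 45.8, 58.8 and 31.0 scaled RPKM in HFD and at 139, 133 and 105 in LYC. The ratio of means was 2.78, the log2 fold change 1.49 (SE 0.29) and the limma adjusted p 0.0146.

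Eci2 (chr13:34977748-35027115), an isomerase of mitochondria and peroxisomes, was at 46.6, 62.9 and 46.2 scaled RPKM in HFD and at 175, 196 and 94.8 in LYC. LYC3 was lowest of its LYC libraries but still above all HFD libraries. Its ratio of means, 2.99, was the highest of the 8, with a log2 fold change of 1.51 (SE 0.32, limma adjusted p = 0.0195). In annotated transcripts 20.5% of the 28-base windows of its coding sequence recur in Eci3, its neighbour in the isomerase family, so part of its reads could belong to that gene.

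Electrons taken from acyl-CoA pass through the electron transfer flavoprotein, made of the subunits Etfa and Etfb, to its dehydrogenase Etfdh and on to the respiratory chain. For Etfb (chr7:43444072-43457800) the level was 188, 126 and 176 scaled RPKM in HFD and 351, 389 and 248 in LYC. It rose 2.02-fold, with a log2 fold change of 1.00 (SE 0.27) and a limma adjusted p of 0.0465, near the threshold. Over the alternatives that adjusted p ran from 0.00464 to 0.173, and Etfb passed in 8 of 18. Its partner Etfa was at 128, 142 and 105 scaled RPKM in HFD and at 236, 319 and 173 in LYC, which gave a log2 fold change of 0.92 (SE 0.28) that missed the threshold (limma adjusted p = 0.0674). Etfdh lay at 89.8, 107 and 98.3 in HFD and at 158, 165 and 122 in LYC (0.58, SE 0.23, limma adjusted p = 0.131). All 3 genes therefore had every LYC library above every HFD library, while only Etfb passed. Of the coding windows of Etfb 77.2% recur in the annotated gene Gm45233, and of those of Etfa 19.0% recur in Gm15285. The seventh gene of this group, Acot2, a mitochondrial acyl-CoA thioesterase, is described with the weakly covered members.

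Along the mitochondrial spiral the gene that rose most was Acaa2 (chr18:74779212-74806207), a 3-ketoacyl-CoA thiolase and so an enzyme of the last step of a cycle. It stood at 410, 385 and 403 scaled RPKM in HFD and at 1171, 1121 and 769 in LYC. The HFD libraries differed little from each other and the lowest LYC library was LYC3. Means were 399 ± 12.8 and 1020 ± 219 (SD, n = 3 each), a ratio of 2.55, with a log2 fold change of 1.33 (SE 0.25, limma adjusted p = 0.0136). The long-chain acyl-CoA dehydrogenase Acadl (chr1:66830839-66863309), which opens the cycle for long chains, also rose. It was at 66.6, 64.3 and 52.8 scaled RPKM in HFD and at 143, 144 and 116 in LYC, a ratio of 2.20 and a log2 fold change of 1.12 (SE 0.23, limma adjusted p = 0.0183). Of the 18 alternatives Acaa2 passed in 16 and Acadl in 13. Of the 6 that left out a library Acaa2 passed in 4 and Acadl in 2. The log2 fold change of Acadl ran from 0.84 to 1.19 over the alternatives.

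The other dehydrogenases of the spiral did not pass. Acadm (chr3:153922353-153944643), the medium-chain enzyme, was at 123, 132 and 87.2 scaled RPKM in HFD and at 115, 178 and 130 in LYC. These ranges overlapped, and its log2 fold change was 0.30 (SE 0.27, limma adjusted p = 0.481). The very-long-chain enzyme Acadvl ranged from 142 to 163 scaled RPKM in HFD and from 144 to 237 in LYC (log2 fold change 0.28). Acads, for short chains, ranged from 59.3 to 68.7 in HFD and from 62.7 to 78.8 in LYC (0.14). Of the 4 dehydrogenases of different chain length, only Acadl had groups that stood apart; that it differs from the others was not tested.

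Between dehydrogenation and thiolysis lie hydration and a further dehydrogenation. Echs1, the short-chain enoyl-CoA hydratase, was at 99.3, 119 and 103 scaled RPKM in HFD and at 179, 241 and 163 in LYC. Its groups stood apart but the adjusted p was just above the threshold (log2 fold change 0.84, SE 0.24, limma adjusted p = 0.0557). Hadha and Hadhb encode the subunits of the trifunctional protein, which handles long chains, and lie head to head on chromosome 5 with 272 bases between them. Hadha was at 103, 102 and 120 scaled RPKM in HFD and at 177, 231 and 143 in LYC (0.73, SE 0.25, limma adjusted p = 0.0889). Hadhb was at 119, 120 and 112 in HFD and at 153, 167 and 104 in LYC, where LYC3 lay below the HFD libraries (0.25, SE 0.25, limma adjusted p = 0.538). The subunits thus had near equal levels in HFD, and 95.3% of the coding windows of Hadhb recur in Gm13910. Hadh, the short-chain hydroxyacyl-CoA dehydrogenase, ranged from 147 to 209 in HFD and from 163 to 261 in LYC (0.29).

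Acat1 (chr9:53580522-53610350), the mitochondrial acetoacetyl-CoA thiolase that works at the entry to ketone synthesis and in ketone use, was at 82.4, 71.9 and 68.2 scaled RPKM in HFD and at 189, 238 and 140 in LYC. It rose 2.55-fold, from 74.2 ± 7.36 to 189 ± 49.1 (SD, n = 3 each), with a log2 fold change of 1.31 (SE 0.26) and a limma adjusted p of 0.0164. Acat1 passed in 15 of the 18 alternatives, and in 3 of the 6 that left out a library. Bdh1 (chr16:31422297-31458901), which interconverts acetoacetate and beta-hydroxybutyrate, was at 49.9, 55.8 and 53.6 in HFD and at 72.2, 121 and 58.3 in LYC. Its groups stood apart, but LYC3 lay close to HFD2 and the change missed the threshold (0.58, SE 0.30, limma adjusted p = 0.226).

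In peroxisomes the member that rose was Hsd17b4 (chr18:50128201-50196270), the D-bifunctional protein that hydrates and dehydrogenates very long and branched chains and bile acid precursors. It was at 142, 174 and 161 scaled RPKM in HFD and at 391, 385 and 307 in LYC, with no overlap. Its ratio of means was 2.27 and its log2 fold change 1.17 (SE 0.23, limma adjusted p = 0.0146). Hsd17b4 passed in 15 of the 18 alternatives. It missed the threshold with library totals alone (0.89, limma adjusted p = 0.0546), without HFD1 (1.08, 0.0641) and without HFD3 (1.16, 0.0725). The L-bifunctional protein Ehhadh (chr16:21761285-21787834) carries out the same steps for other substrates and is a well-known PPAR-alpha target. Its levels of 116, 156 and 106 in HFD and of 96.9, 158 and 113 in LYC overlapped, with a log2 fold change of -0.05 (SE 0.27, limma adjusted p = 0.922). The 2 bifunctional enzymes had similar means in HFD, 159 for Hsd17b4 and 126 for Ehhadh; the difference between their changes was not tested.

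Chains reach the peroxisome through carriers. Abcd3, a transporter of the peroxisomal membrane, was at 167, 195 and 137 scaled RPKM in HFD and at 380, 283 and 232 in LYC. The groups stood apart, with a limma adjusted p above the threshold (0.83, SE 0.27, adjusted p = 0.0769). Slc27a2, a very long-chain acyl-CoA synthetase, ranged from 477 to 551 in HFD and from 257 to 502 in LYC (-0.47, limma adjusted p = 0.299). Scp2 encodes a sterol carrier protein and, from a longer transcript, a peroxisomal thiolase, and had the highest level of all members in every library. It stood at 1236, 1067 and 1146 scaled RPKM in HFD and at 2071, 2108 and 1461 in LYC (0.69, SE 0.26, limma adjusted p = 0.115). Of its coding windows 26.2% recur in Scp2-ps2. Pex11a, a membrane protein of peroxisome division, ranged from 29.7 to 42.8 in HFD and from 43.3 to 65.5 in LYC, so LYC2 and HFD3 nearly met (0.61, limma adjusted p = 0.167).

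Decr2, the peroxisomal dienoyl-CoA reductase, ranged from 92.4 to 108 scaled RPKM in HFD and from 105 to 144 in LYC (0.37). Crot, which passes shortened chains to carnitine, ranged from 164 to 220 in HFD and from 160 to 241 in LYC (-0.02). Neither passed the test. The peroxisomal thioesterases Acot3 and Acot4 were low and variable. The reads of Acot4 numbered 39, 186 and 17 in HFD and 12, 16 and 34 in LYC, or 5.92, 14.4 and 8.54 scaled RPKM against 16.4, 22.0 and 38.5 (1.32, SE 0.41, limma adjusted p = 0.0715). Those of Acot3 numbered 16, 82 and 10 in HFD and 1, 11 and 16 in LYC, which gave 1.18 to 15.7 scaled RPKM in LYC (0.75, SE 0.73). These genes lie in a cluster of close relatives on chromosome 12, and 64.4% of the coding windows of Acot3 and 26.9% of those of Acot4 recur in other annotated genes.

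The peroxisomal thiolases Acaa1a and Acaa1b are near-identical paralogs on chromosome 9, and their separate values are uncertain. Their longest annotated coding sequences both have 1272 bases and differ at 44 positions, 96.5% being identical, with the longest identical run 327 bases long. A footprint falling in such a run cannot be given to either gene, and 52.9% of the 28-base windows of each recur in the other. The stretch from base 460 to base 549 of the coding sequence, counted from the A of the start codon, holds 13 of the differing positions and is shown because a footprint there can tell the genes apart. Capitals mark the bases that differ (GENCODE M21 transcripts, GRCm38, coding strand).
Acaa1a: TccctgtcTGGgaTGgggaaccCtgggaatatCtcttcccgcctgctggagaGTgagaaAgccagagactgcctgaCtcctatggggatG
Acaa1b: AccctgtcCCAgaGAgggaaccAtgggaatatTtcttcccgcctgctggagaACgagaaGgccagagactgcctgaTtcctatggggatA

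As deposited, Acaa1a was at 330, 425 and 378 scaled RPKM in HFD and at 501, 877 and 497 in LYC (0.68, SE 0.29, limma adjusted p = 0.152). Acaa1b was at 408, 544 and 419 in HFD and at 370, 563 and 489 in LYC (0.05, SE 0.26, limma adjusted p = 0.926). Acaa1a thus took 46.0%, 45.1% and 48.8% of the reads of the pair in HFD and 58.8%, 62.1% and 51.7% in LYC. In the matching columns of the second deposited table Acaa1a took 32.7%, 31.6% and 36.1% in HFD against 41.2%, 44.4% and 36.3% in LYC. Both tables have a lower share in every HFD library than in every LYC library, and in all 6 libraries the share was lower in the second table than in the Ribo-seq table. The sum of the pair differed little between the tables. In HFD it was 3576, 9213 and 1167 reads against 3654, 9407 and 1201 in the second table. In LYC it was 473, 776 and 642 against 473, 777 and 644. The summed level was 738, 968 and 797 scaled RPKM in HFD and 871, 1440 and 986 in LYC, so the groups overlapped.

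**Figure D3:**
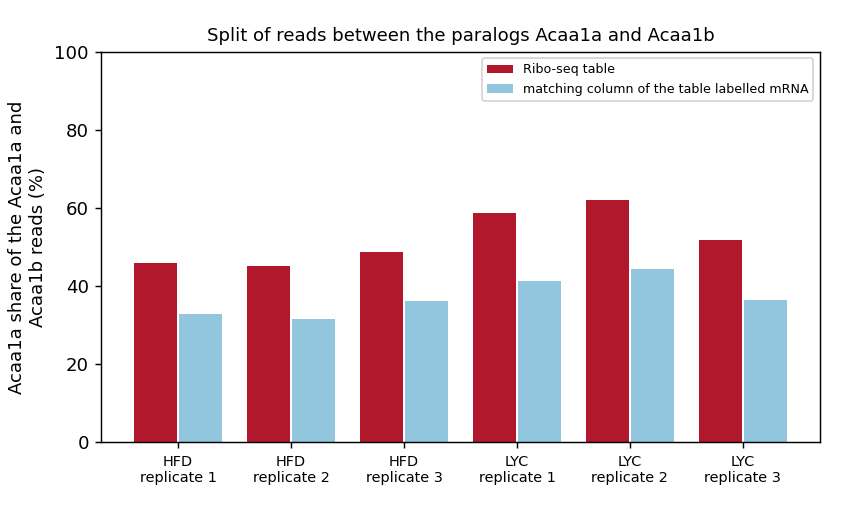
Share of Acaa1a in the reads given to Acaa1a or Acaa1b, in percent, in each Ribo-seq library (dark bars) and in the matching column of the table labelled mRNA (light bars). The Ribo-seq table puts the share between 45.1% and 62.1%, and the second table between 31.6% and 44.4%.

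Activation and entry into mitochondria held no gene that passed. Cpt1a (chr19:3322326-3385735), the outer-membrane carnitine palmitoyltransferase that sets the pace of mitochondrial oxidation, was at 70.8, 111 and 92.1 scaled RPKM in HFD and at 74.4, 122 and 103 in LYC. Its groups overlapped almost fully, with a log2 fold change of 0.13 (SE 0.28, limma adjusted p = 0.800). Cpt2, its partner on the inner membrane, ranged from 46.1 to 57.4 in HFD and from 29.7 to 58.5 in LYC (-0.17). Slc25a20, the carnitine-acylcarnitine carrier between them, was at 32.3, 53.1 and 38.1 in HFD and at 47.2, 84.2 and 73.9 in LYC (0.71, SE 0.31, limma adjusted p = 0.160). Crat, the carnitine acetyltransferase, ranged from 10.9 to 17.9 in HFD and from 5.99 to 13.1 in LYC (-0.54).

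The long-chain acyl-CoA synthetases had values on opposite sides of HFD. Acsl1, the main form in liver, was at 252, 233 and 217 scaled RPKM in HFD and at 424, 274 and 280 in LYC (0.45, SE 0.25, limma adjusted p = 0.261). Acsl5 was at 154, 138 and 138 in HFD and at 72.4, 60.9 and 124 in LYC (-0.80, SE 0.29, limma adjusted p = 0.110), and was the only tested member with every LYC library below every HFD library. Neither passed the test, but Acsl5 did with scaling by library totals alone (-1.09, adjusted p = 0.0441) and without LYC3 (-1.13, adjusted p = 0.0145).

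Ppara itself (chr15:85734910-85806851) was at 33.8, 49.3 and 37.1 scaled RPKM in HFD and at 31.2, 42.6 and 29.2 in LYC. Its means, 40.1 ± 8.18 and 34.3 ± 7.21 (SD, n = 3 each), differed by less than the spread between libraries, and the log2 fold change was -0.22 (SE 0.27, limma adjusted p = 0.623). Vnn1 (chr10:23894688-23905344), which encodes the pantetheinase vanin-1 and is a PPAR-alpha target, was at 23.2, 34.6 and 14.5 in HFD and at 19.7, 33.1 and 25.1 in LYC (0.15, SE 0.36, limma adjusted p = 0.814). In both genes the ranges of the groups overlapped.

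The remaining 4 members had too few reads in LYC for the test. Fgf21 (chr7:45613890-45615490), the liver hormone induced by PPAR-alpha in fasting, had 8, 9 and 3 reads in HFD and 0 in each LYC library. At the HFD level only 2.18 reads would be due in the 3 LYC libraries together, and 3 reads there correspond to 3.14 scaled RPKM, above the pooled HFD level of 2.28. A fall was therefore not detectable at this depth, although the fit without a filter on low genes called Fgf21 lower. Pdk4 (chr6:5483351-5496278), the pyruvate dehydrogenase kinase that spares glucose, gave 40, 50 and 11 reads in HFD against 0, 3 and 2 in LYC. The pooled ratio of LYC to HFD was 0.45, with a 95% counting interval from 0.145 to 1.10 that takes no account of the spread between mice. Acot2 gave 3, 49 and 10 reads in HFD against 0, 1 and 2 in LYC, a ratio of 0.44 (counting interval 0.0893 to 1.36), and Acot8, a peroxisomal thioesterase, had 25, 41 and 11 against 1, 7 and 1, a ratio of 1.07 (0.473 to 2.15). Of the coding windows of Acot2 57.6% recur in Acot1. Its counts also differed between the deposited tables. The second table lists 28, 79 and 8 for the columns matching HFD1, HFD2 and HFD3. For those matching LYC1, LYC2 and LYC3 it lists 6, 2 and 5. The Acot2 ratio of 0.44 therefore holds for the Ribo-seq table only, and its counting interval does not cover the difference between the tables.

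The members tended to be ordered alike within a group. LYC2, the shallowest library, held the highest LYC level in 24 of the 37 tested members (64.9%), against 34.7% of all genes tested. Without LYC2 the members' median log2 fold change went from 0.58 to 0.38. LYC3 held the lowest in 21 (56.8%), against 35.5% of all genes. Among the HFD libraries HFD2, the deepest, was highest in 25 (67.6%), against 31.7%. The median log2 difference of the members from the HFD mean was 0.44 in LYC1, 0.75 in LYC2 and 0.35 in LYC3, while all genes tested had medians from -0.06 to -0.02. In the 8 members that rose these medians were 1.32, 1.38 and 0.93, and LYC3 was lowest in 7 of them. The members of a library share its depth and scaling with all other genes, and the reason for their common order was not tested.

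**Figure D4:**
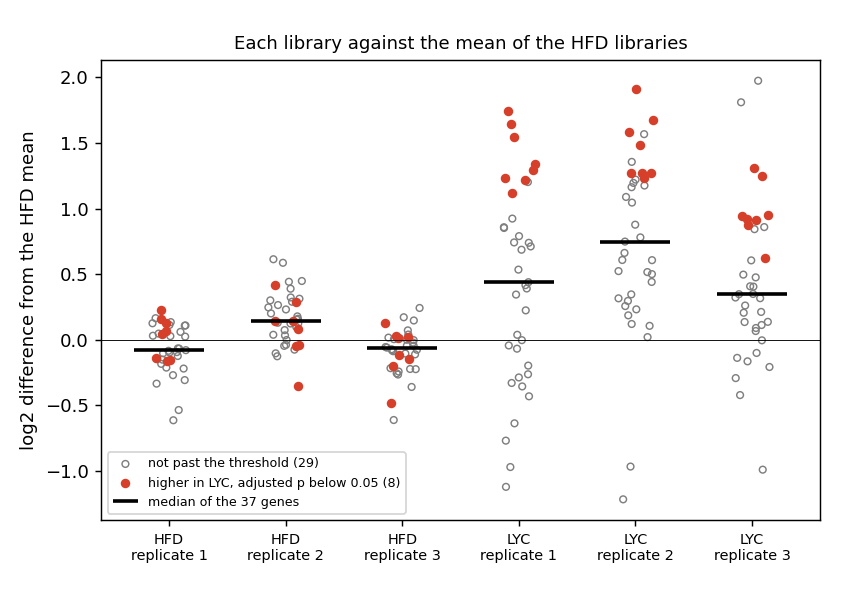
Difference of each of the 37 tested members from the mean of the 3 HFD libraries, on the log2(scaled RPKM + 1) scale, in each library, with the median as a black bar. The median lies at 0.44, 0.75 and 0.35 in LYC1, LYC2 and LYC3, and the 8 members with an adjusted p below 0.05 (red) lie above 0 in all LYC libraries.

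Of 119 further genes of the pathway taken from 5 lists, 86 could be tested, and 8 (9.30%) were significantly higher and 3 (3.49%) lower in LYC, shares not far from the 6.53% and 5.26% of all genes. The median of their log2 fold changes was 0.21. The largest change was that of Lpin1, a phosphatidate phosphatase that also acts with PPAR-alpha as a coactivator, which went from 9.66, 12.7 and 8.51 scaled RPKM to 137, 68.2 and 113 (3.20, SE 0.32, limma adjusted p = 6.29e-04). Of 27 other PPAR-alpha targets tested 3 were higher and 1 was lower, with a median of 0.16. Angptl4, an inhibitor of lipoprotein lipase, rose (1.72, SE 0.30, adjusted p = 0.0101), as did the fatty acid binding protein Fabp2 (1.21, SE 0.26, adjusted p = 0.0207) and the synthetase Acsl4 (1.21, SE 0.33, adjusted p = 0.0474). Retsat, retinol saturase, fell by 1.40 on the log2 scale (SE 0.38, adjusted p = 0.0473). Named after their values were seen, 3 well-known targets had means below HFD without passing limma. The fatty acid omega-hydroxylases Cyp4a10 (ratio of means 0.60, adjusted p = 0.194) and Cyp4a14 (0.73, adjusted p = 0.548) overlapped between the groups, and the lipid droplet protein Plin2 had every LYC library below every HFD library (0.65, adjusted p = 0.122). Other targets of this list missed the limma threshold with every LYC library above every HFD library. Among them were Fabp1 (ratio of means 1.71, adjusted p = 0.151) and Cyp4a12a (1.98, adjusted p = 0.0698). Aldh3a2 (1.71, adjusted p = 0.0718) and Creb3l3 (1.59, adjusted p = 0.104) were so too.

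In the peroxisome Phyh, which starts alpha-oxidation of phytanic acid, went from 619, 519 and 510 scaled RPKM to 1843, 1558 and 1215 (1.47, SE 0.26, limma adjusted p = 0.00950). The hydroxyacid oxidase Hao1 rose as well (1.31, SE 0.27, adjusted p = 0.0187). Slc27a5, a bile acid and very long-chain acyl-CoA synthetase, fell by 1.01 on the log2 scale (SE 0.28, adjusted p = 0.0486). Of the other mitochondrial genes Pcca, a subunit of propionyl-CoA carboxylase, rose (1.04, SE 0.27, adjusted p = 0.0400).

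The livers had their hepatocyte markers at 37288 to 41764 summed scaled RPKM in HFD and 30070 to 42342 in LYC. Alb alone held 23441 to 25513 of this in HFD and 13307 to 24355 in LYC. Single markers went both ways, with ratios of means of 2.18 for Cps1, 1.50 for Apoa1, 0.60 for Serpina1c and 0.73 for Fgb. Of the 9 hepatocyte markers tested 0 passed limma. The summed marker levels of Kupffer cells, endothelial cells, stellate cells, lymphocytes and red blood cells overlapped between the groups. Those of endothelial cells spread widely in LYC, from 32.5 to 121, against 63.7 to 92.5 in HFD. LYC2 held the lowest LYC level of Stab2, Clec4g, Lyve1, Pecam1 and Kdr, and the highest of Fcgr2b. Of the 4 adipocyte markers only Adipoq had a row, with 3 reads in HFD2 (0.437 scaled RPKM) and none elsewhere. The summed cholangiocyte markers did not overlap, with 15.0 to 23.7 in HFD and 3.62 to 9.20 in LYC, and the 5 markers together had 15 reads in LYC where 37.1 would be due at the HFD level. Spp1 had 8 where 25.1 would be due, and the 3 markers without a read in LYC would each be due 0.653 to 1.74. Of 28 cell type markers tested 1 passed, the red blood cell gene Alas2 (1.00, SE 0.26, limma adjusted p = 0.0386), a smaller share than the 6.53% of all genes called higher. Of 11 clock genes tested 1 was higher and 1 lower, where 6.53% and 5.26% of all genes were. Dbp, a clock output factor, was higher in LYC (3.10, SE 0.49, adjusted p = 0.00672) and Clock was lower (-1.25, SE 0.31, adjusted p = 0.0351). Over all 15 clock genes every LYC library lay above every HFD library in 6 and below in 4, of which 4 and 2 were among the 11 tested, where 18.7% and 19.3% of all genes lay so, the lower count being near its background. Named after their values were seen, Tef (1.42, SE 0.39, adjusted p = 0.0505) and Per2 (1.17, SE 0.33, adjusted p = 0.0531) just missed the threshold. Arntl, untested, had 58, 41 and 15 reads in HFD and none in LYC, where 12.4 would be due at the HFD level, and Npas2 had 33, 13 and 5 and none, where 5.55 would be due. Of 5 tested genes of fasting and glucocorticoid response 3 rose, where 6.53% of all genes did, namely Pck1 (1.79, SE 0.34, adjusted p = 0.0146), Tat (1.55, SE 0.32, adjusted p = 0.0183) and Tsc22d3 (1.81, SE 0.29, adjusted p = 0.00739). Pck1 was at 1197, 1722 and 811 scaled RPKM in LYC1, LYC2 and LYC3, the order in which many members lay. The other tested clock genes and the other 2 tested fasting genes did not pass, and the part of depth, small RNA share or these genes in the members' change was not tested.

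The second deposited table, labelled mRNA, did not give an independent measurement of the members. Its columns matched single Ribo-seq libraries, with r across 15151 genes from 0.9581 to 0.9716 for the best match of each, and HFD numbers did not match HFD numbers. Of 215 member values with at least 20 reads, 194 (90.2%) lay within 5% of the matching column. By edgeR on those counts 13 of 36 tested members were higher, as were 10.9% of all genes, and 0 lower (1 lower at an unadjusted p below 0.05), and no translational efficiency was computed.

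PPAR-alpha binds with its partner to DR1 elements, pairs of the half-site AGGTCA spaced by 1 base. RefSeq promoters, 250 bases before to 50 after a start site (GRCm38.p6), were found for 35 members and searched on both strands; Acaa2, Acat1, Crat, Decr1, Hsd17b4 and Vnn1 were not searched. The half-site was present in 8 of the 35 members (22.9%) and in 18.1% of all 27025 genes with a promoter. The full element AGGTCANAGGTCA with at most 2 mismatches over its 12 fixed bases, which can contain an exact half-site, was present in 4 members (11.4%) and in 4.4% of all genes. These members were Acot4, Echs1, Etfa and Slc25a20, each with 2 mismatches, and edgeR but not limma called Acot4, Echs1 and Etfa higher. Of the 8 members higher by limma only Acadl, Eci1, Eci2 and Etfb were searched. The matches that lie before a start site are shown with their surroundings, to let the letters be read, with capitals marking the 13 bases of the match. The window of Acot4 is chr12:84038326-84038378 on the plus strand, that of Echs1 chr7:140116452-140116544 on the minus strand and that of Etfa chr9:55512268-55512360 on the minus strand.
Acot4: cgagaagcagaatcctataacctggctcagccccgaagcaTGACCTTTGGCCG
Echs1: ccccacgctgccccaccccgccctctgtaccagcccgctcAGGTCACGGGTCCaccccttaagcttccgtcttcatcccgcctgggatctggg
Etfa: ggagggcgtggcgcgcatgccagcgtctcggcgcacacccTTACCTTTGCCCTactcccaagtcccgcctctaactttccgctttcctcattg
In Acot4 and Etfa the match reads along the opposite strand, and in Slc25a20 it lies after the start site. A match describes these letters only, and many elements known to act lie outside such short windows.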

How the data were processed

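For Ribo-seq the authors deposited RPKM values per gene. Per the study's methods, reads were cleaned with cutadapt and Bowtie2, aligned to GRCm38/mm10 with STAR and quantified with FANSE2, with versions not given in the sources used here; the series' design text instead names RefSeq RNA references. The authors also deposited read counts of libraries labelled mRNA. Whole reads were recovered from the RPKM steps (71.9% to 72.4% of values above 0 whole with the second table's gene lengths); of 25033 entries, 4 sharing a name were left out, and 26 whose names had become dates included no member. RPKM was divided by TMM factors of the recovered reads over genes kept by filterByExpr, 1 was added, and log2 values were tested with limma 3.58.1 (trend) in R 4.3.3 on 5663 genes, LYC against HFD, n = 3 each, with an adjusted p below 0.05 as the threshold. edgeR 4.0.16, DESeq2 1.42.0, other scalings, pseudocounts of 0.5 and 5, no filter, a gene length correction and leaving out each library were alternatives; the scripts were tested on simulated data. On the recovered reads edgeR called 565 genes higher and 424 lower.

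The members, roles and lists were chosen with earlier results of these data known. All members were to be named; full statistics are given for those that passed and for Ppara, Fgf21, Pdk4, Vnn1, Cpt1a, Acadm, Ehhadh, Acat1 and Bdh1, pathway genes by adjusted p (not every gene this covers is reported here), and up to 3 genes of each marker list. Of the alternatives 1, TMM factors over unfiltered genes, was added after seeing the data. Numbered libraries of different groups come from different mice. Protein sequences were not used here. Coding windows of 28 bases were taken from GENCODE M21 and promoters from RefSeq (GRCm38.p6). Tables were made with pandas 2.3.3 and scipy 1.17.1 under Python 3.11.15.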

Additional observations from a re-analysis of the deposited data

How the results depend on the processing

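Against 8 members higher and 0 lower in LYC, scaling by library totals alone gave 5 and 1, DESeq2 gave 15 higher, edgeR on the counts of the table labelled mRNA gave 13 higher, and dropping the filter on low genes gave 1 lower. Leaving out each library in turn gave 0 to 12 members higher and 0 to 1 lower. The members' median of 0.58 became 0.30 with library totals, 0.32 without the filter and 0.38 without LYC2. Library totals moved the median of all genes from -0.10 to -0.36, and the members' median minus that of all genes was 0.68 in the reported fit and 0.48 to 0.70 over the 18 alternatives. For all genes the 370 higher and 298 lower became 216 and 566 with library totals, and 246 and 671 without the filter. They were 565 higher with edgeR, 650 higher with DESeq2, 646 and 464 on the second table, and 129 to 639 and 41 to 785 without 1 library. The 8 pathway genes higher and 3 lower became 4 and 7 with library totals, 5 and 5 with TMM factors over unfiltered genes, 5 and 1 without the filter, 15 and 5 on the second table and 19 and 6 with DESeq2. They were 5 lower with edgeR, 1 lower with a pseudocount of 0.5, and 1 to 13 higher and 0 to 8 lower without 1 library. The cause of these moves was not tested, and leaving out a library also changed the number of genes tested, to between 4586 and 7177.

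Numbers do not pair mice of different groups, and same-numbered libraries had deviations with r of 0.106, 0.0251 and -0.00373 across genes. A replicate block gave 8 members higher and 0 lower, with Etfa (adjusted p = 0.0493) in place of Etfb (0.0568), and 5 pathway genes higher. Over the settings 30 single-member values lost and 23 gained the threshold of 665. Of the 29 members that missed it 9 took fitted values of both signs, and no member that passed changed direction. The 4 untested members had at most 9 recovered Ribo-seq reads over the LYC libraries together.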
